A study of Mus musculus with 123 samples.

Results

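Broad domains of histone H3 lysine 4 methylation were examined in 3 lists of peaks from mouse embryonic stem cells. The lists are named ES1, ES2 and ES3. All touching or overlapping peaks of the 3 lists on chromosomes 1 to 19 were merged into 30974 regions (mm9 build). A region was called a broad domain when it held at least 1 single listed peak of 10000 bp or more, which gave 615 domains, or 1.99% of the merged regions. The series holds 123 libraries of droplet-based chromatin immunoprecipitation, in which the chromatin of each cell is barcoded before cells are pooled. By antibody, 86 libraries were made against H3K4me2 and 37 against H3K4me3, from V6.5 mESC grown in serum with LIF, MEF and EML blood progenitor cells. The labels do not say which libraries, which of the 2 marks or how many cells stand behind each list, or how the cells of a list were picked. Each list stands alone, with no replicate, so differences are given without p-values and variation among cultures is unknown.

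Methylation of H3 lysine 4 is deposited by the MLL/SET1 enzymes. The trimethylated form is concentrated at active and poised promoters, where CpG-rich sequence recruits the enzymes, and the dimethylated form flanks promoters and also marks enhancers. At most genes the mark forms a narrow peak, but at some it spreads far into the gene body, and such broad domains are known for genes that define a cell's identity. In stem cells, promoters of developmental regulators can carry wide H3K4 methylation together with the Polycomb mark H3K27me3. No annotation of mm9 was used here, so the domains are described by position and not by gene, and the stem cell identity of the lists could not be checked on marker genes.

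The width rule drew its members mostly from ES1. Of 25878 autosomal ES1 peaks 557 were 10000 bp or wider, as were 234 of 21202 ES2 peaks and 43 of 12239 ES3 peaks. A peak of that width lay in ES1 alone in 380 domains, in ES2 alone in 58 and in ES3 alone in 1. Both ES1 and ES2 had one in 135 domains, ES1 and ES3 in 7, ES2 and ES3 in 3, and all 3 lists in 31. These counts restate the rule. The 615 domains spanned 9.71 Mb, with a median width of 13629 bp (quartiles 11690.5 and 17468 bp), and 103 domains were at least 20 kb and 24 at least 30 kb wide. The narrowest peaks that still made a domain were 10000 bp at chr7:140249178-140259177, 10001 bp at chr6:83064665-83075901 and 10004 bp at chr8:11697841-11709080. The widest peaks that did not were 9998 bp at chr5:39071054-39081051, 9976 bp at chr1:135022619-135032811 and 9972 bp at chr19:23206315-23216680. All 6 of these peaks were ES1 peaks. ES3 covered 15.1%, 19.2% and 20.2% of the 3 domains just inside the limit and 10.7%, 35.0% and 44.0% of the 3 regions just outside it. These ES3 shares overlap across the limit.

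Nearly all domains were found in every list, but in different shape. An ES2 peak lay in 614 of 615 domains (99.8%, exact binomial 95% interval 99.1 to 100.0) and an ES3 peak in 595 (96.7%, 95 to 98.0). Over all merged regions the shares were 64.9% for ES2 and 36.4% for ES3. In regions whose widest peak was 8 to 10 kb, just short of the limit, they were 98.9% and 85.4%, so most of this excess was shared with other wide regions. At least 50% of the bases were covered by ES2 in 504 domains (82.0%) and by ES3 in 184 (29.9%). All 3 lists were present in 594 domains (96.6%, 94.8 to 97.9), against 26.5% of all merged regions. Where the lists differed was in how much of a domain they covered: 93.4% of the domain bases in ES1, 71.3% in ES2 and 41.1% in ES3. Per domain, the median covered share was 96.7% in ES1 (quartiles 90.3 and 100), 73.7% in ES2 (56.8 and 86.4) and 38.7% in ES3 (23.4 and 53.5). The covered length fell from ES1 through ES2 to ES3 in 435 domains (70.7%, 67.0 to 74.3), beside 23.4% of all merged regions and 63.1% (59.1 to 66.9) of the 615 next narrower ones. ES2 covered more than ES1 in 105 domains (17.1%, beside 34.8% of all merged regions), ES3 more than ES1 in 14 (2.28%, beside 12.6%) and ES3 more than ES2 in 78 (12.7%, beside 16.8%). Since most members were chosen by an ES1 peak, the lead of ES1 in these counts is partly set by the rule. When the peaks in the lowest 25% of scores were left out, ES1 covered 65.4%, ES2 46.7% and ES3 25.1% of the bases of the same domains.

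The shape of a domain was sorted into 4 states for each list: 1 peak over at least 90% of the bases, 1 peak over less than 90%, 2 or more peaks, and no peak. In ES1, 458 domains (74.5%, 70.8 to 77.9) were covered by 1 nearly complete peak, against 101 (16.4%, 13.6 to 19.6) in ES2 and 11 (1.79%, 0.896 to 3.18) in ES3. Over all merged regions, most of which are narrow, these shares were 52.2%, 28.7% and 7.55%, and over the 615 next narrower regions 70.7%, 21.3% and 2.28%. ES1 broke 78 domains into 2 or more peaks (12.7%, 10.2 to 15.6), ES2 broke 360 (58.5%, 54.5 to 62.5) and ES3 broke 371 (60.3%, 56.3 to 64.2). Over all merged regions, most of which are too narrow to be broken often, 1.02%, 3.0% and 2.54% were broken in ES1, ES2 and ES3. In regions whose widest peak was 8 to 10 kb, these shares were 8.09%, 35.5% and 32.1%, so much of the excess was shared with other wide regions. A single but shortened peak was found in 79 ES1, 153 ES2 and 213 ES3 domains (12.8%, 24.9% and 34.6%), beside 29.3%, 33.3% and 26.3% of all merged regions and 21.0%, 44.1% and 51.7% of the next narrower ones. ES2 and ES3 were thus broken about equally often, with intervals that overlap, although ES3 covered far fewer bases. Each list was also held to the 12239 peaks with the most counted reads. Then 7.97% of domains were broken in ES1, 40.7% in ES2 and 60.3% in ES3. ES3 held only 12239 autosomal peaks and so was unchanged, and leaving out peaks can only lower the broken share. These values therefore cannot show whether ES2 and ES3 differ in breaking, and the near equality above is that of the full lists. The most common number of ES3 peaks was 2, in 241 domains, and 130 domains held 3 or more.

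**Figure D1:**
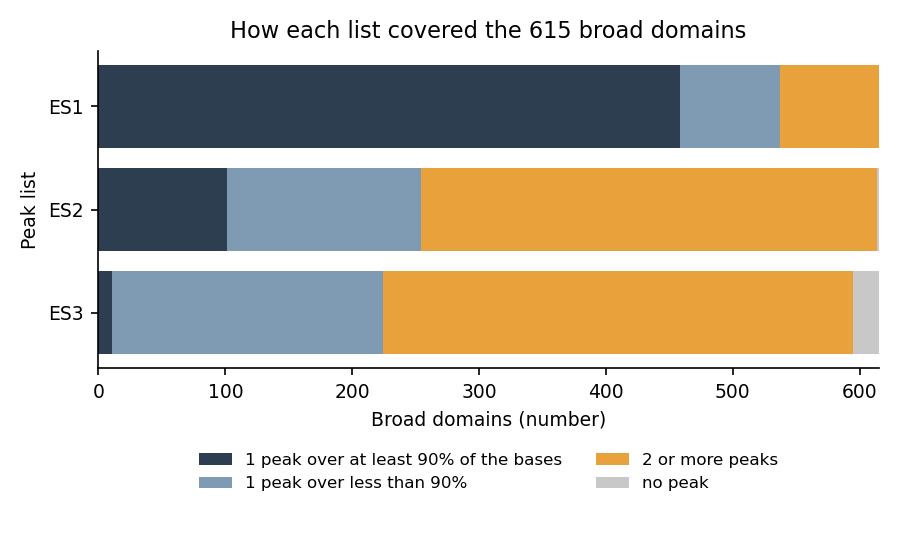
Number of the 615 broad domains (x axis) in each of 4 states for every peak list (y axis). The bar of ES1 is mostly 1 nearly complete peak (458 domains), while ES2 and ES3 are mostly 2 or more peaks (360 and 371), and nearly complete single peaks shrink to 101 in ES2 and 11 in ES3.

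The states in ES2 and ES3 were set side by side, given that 58.5% and 60.3% of all domains were broken in them. Of the 360 domains broken in ES2, 255 (70.8%) were also broken in ES3, which is 68.7% of the 371 broken there, 95 held 1 shortened ES3 peak, 1 held a nearly complete ES3 peak and 9 had none. Of the 153 domains with 1 shortened ES2 peak, 62 (40.5%) were broken in ES3 and 78 held 1 shortened ES3 peak. Of the 101 domains that ES2 covered with 1 nearly complete peak, 53 (52.5%) were broken in ES3, 40 were shortened, 5 were nearly complete and 3 were absent. Wider domains have more room for breaks in either list, and these shares were not matched for width.

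The widest domains show the pattern at single places, apart from the widest of all, at the start of chromosome 11. At chr11:3023109-3099759, 76651 bp wide, ES1 covered 89.7% in 3 peaks, ES2 99.9% in 1 peak of 76578 bp and ES3 98.4% in 2 peaks. At chr12:111707558-111761972, a span of 54415 bp, ES1 listed 1 peak of 54241 bp. ES2 broke the span into 7 peaks, the longest of 14070 bp, and covered 60.6% of it. ES3 held 6 peaks, the longest of 6269 bp, and covered 29.8%. The lone ES1 peak and the pieces of the other lists thus spanned almost the same stretch, from 0 to 54241 bp, from 2245 to 54415 bp and from 1792 to 52079 bp after the domain's start. At chr7:29702658-29751959, 49302 bp wide, ES1 again listed 1 peak, of 49187 bp, while ES2 and ES3 listed 6 peaks each. There ES2 covered 80.9% with no peak over 8665 bp, and ES3 43.3% with no peak over 5913 bp. At chr15:77625350-77673819 the ES1 peak of 48396 bp stood against 5 ES2 peaks over 58.4% and 7 ES3 peaks over 41.2%, the most ES3 pieces in any domain. At chr14:22361966-22408640 the ES1 peak of 44851 bp stood against 5 peaks in each of the other lists, over 78.3% in ES2 and 30.8% in ES3.

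**Figure D2:**
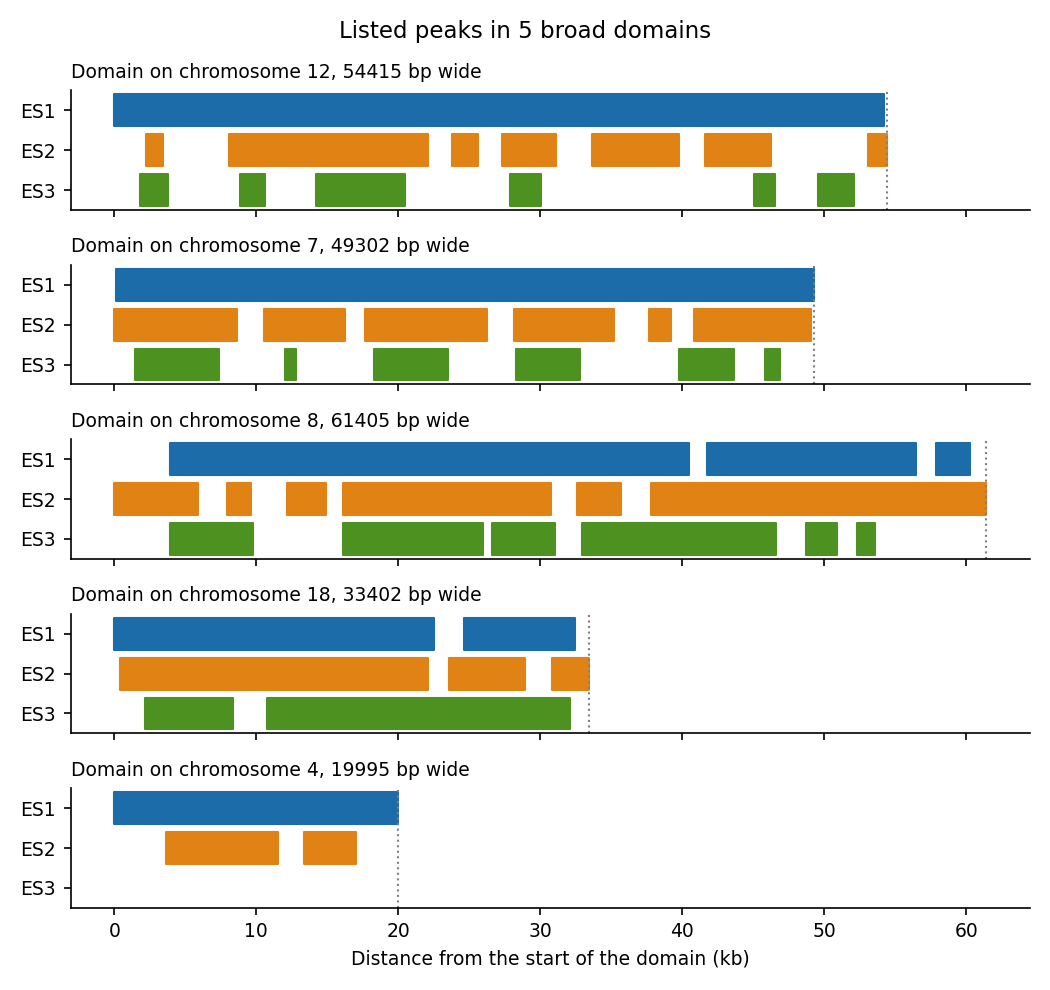
Listed peaks of ES1, ES2 and ES3 (rows) along 5 broad domains, by distance in kb from the domain's start; dotted lines mark the domain's end. On chromosomes 12 and 7 a single ES1 peak stands over 7 and 6 ES2 pieces and 6 ES3 pieces each, on chromosome 8 all 3 lists are broken, on chromosome 18 ES3 keeps a peak of 21328 bp, and on chromosome 4 no ES3 peak was listed.

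Not all of the 10 widest domains were whole in ES1. At chr8:123028071-123089475, 61405 bp wide, ES1 had 3 peaks and ES2 and ES3 had 6 each, and they covered 87.4%, 84.1% and 60.7%. At chr12:87803620-87851902 the longest single peak was that of ES2, 37030 bp against 36497 bp in ES1, and ES3 kept a peak of 19809 bp. At chr12:85528163-85564506 the ES1 and ES2 peaks were nearly equal, 35399 and 35347 bp, whereas ES3 held 4 peaks with a longest of 9621 bp. At chr9:114431137-114470876 ES1 listed 38685 bp in 1 peak, and ES2 and ES3 listed 2 peaks each that covered 85.5% and 75.5%. At chr12:103913639-103953395 the lists held 1, 4 and 5 peaks over 96.5%, 73.0% and 58.5% of the bases.

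The longest unbroken peak per domain shortened more than the covered length did. Its median was 12436 bp in ES1 (quartiles 10692 and 15886), 8293 bp in ES2 (5190 and 11235) and 3853 bp in ES3 (2386.5 and 5738). A list's own wide peaks are fixed by the rule, so the shares below are for the other lists. Each pair of lists shares the same domains in both directions, over different totals. The difference between the directions therefore follows from how many wide peaks each list has. In the 553 domains chosen by an ES1 peak, 166 (30.0%, 26.2 to 34.0) also had a 10 kb peak in ES2 and 38 (6.87%, 4.91 to 9.31) in ES3. In the 227 domains chosen by an ES2 peak, 166 (73.1%, 66.9 to 78.8) had one in ES1 and 34 (15.0%, 10.6 to 20.3) in ES3. In the 42 domains chosen by an ES3 peak, 38 (90.5%, 77.4 to 97.3) had one in ES1 and 34 (81.0%, 65.9 to 91.4) in ES2. The 3 sets share domains. ES1 covered 90.4% of the bases of domains chosen by ES2 and 92.2% of those chosen by ES3, and ES2 covered 69.3% and 85.8% of those chosen by ES1 and ES3. ES3 covered 40.9% and 48.3% of those chosen by ES1 and ES2. In each of these 3 overlapping sets ES1 covered the most bases and ES3 the fewest. Most domains chosen by ES2 or ES3 also had a 10 kb ES1 peak, so this order is partly set by the rule. Split by which lists held such a peak, ES1 covered the most bases only where it held one. In the 3 domains with one in ES2 and ES3 only, ES1 covered 57.0% and ES2 94.0%. In the 7 with one in ES1 and ES3 only, ES3 covered 82.2% and ES2 67.7%. The full order ES1, ES2, ES3 held only where ES1 alone, ES1 and ES2, or all 3 lists had one.

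**Figure D3:**
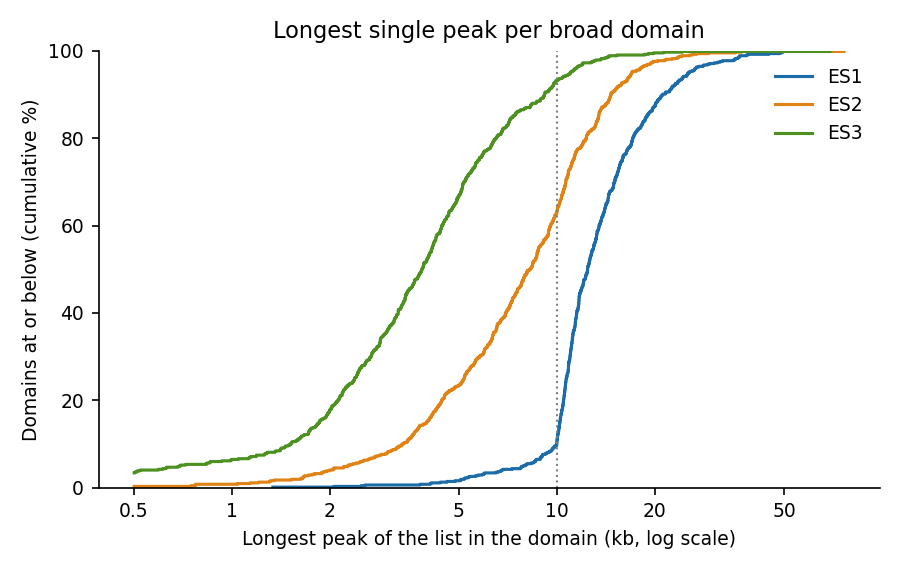
Cumulative share of the 615 domains (y axis, %) by the longest single peak of each list in the domain (x axis, kb, log scale); the dotted line marks 10 kb, and domains without a peak are counted from the left edge. The medians are 12436 bp for ES1, 8293 bp for ES2 and 3853 bp for ES3; the steep rise of ES1 at 10 kb reflects the rule that chose the domains.

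In domains that ES2 alone chose, the order of ES1 and ES2 was turned, as the rule favours. In the 58 domains with a 10 kb peak in ES2 alone, ES2 covered 93.5% of the bases and ES1 74.0%, and 40 of the 58 were broken in ES1. In the 380 domains with such a peak in ES1 alone, ES1 covered 95.8% and ES2 59.4%, and 279 were broken in ES2. ES3 was alike in both, with 39.4% and 34.4% of the bases. At chr12:88138247-88158661 the ES2 peak spanned all 20415 bp, while ES1 and ES3 held 3 peaks each over 67.2% and 28.2%. At chr2:33303882-33325344 the ES2 peak of 19646 bp faced 3 ES1 peaks over 59.8% and 1 ES3 peak over 17.0%. At chr8:108378213-108398717 the ES2 peak of 10207 bp was 1 of 3 ES2 peaks over 82.2%, ES1 had 2 peaks over 66.8%, and ES3 had 2 over 26.8%. A stretch whole in one of ES1 and ES2 and broken in the other was thus found in either direction.

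Bases were lost at the ends of domains and between peaks in different proportions. ES2 left 2.79 Mb of the domains uncovered, of which 1.41 Mb (50.7%) lay between its peaks and 1.36 Mb (48.9%) outside its outermost peaks. ES3 left 5.72 Mb uncovered, of which 2.12 Mb (37.1%) lay between peaks, 3.34 Mb (58.4%) at the ends and 0.26 Mb (4.55%) in domains with no ES3 peak. The ES3 losses at the lower and the higher coordinate were nearly equal, 1.68 and 1.66 Mb. Along the domains, cut into 20 equal steps, ES3 covered 20.7% of domains at the first step and 20.8% at the last, and between 39.2% and 47.3% from the third to the eighteenth step. ES2 covered 50.6% and 50.1% at the outer steps and between 70.6% and 75.1% from the third to the eighteenth. Low coverage at the outer steps is partly built in, because the list that reaches farthest sets the edge. Away from the edges the average ES2 and ES3 profiles were close to flat.

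**Figure D4:**
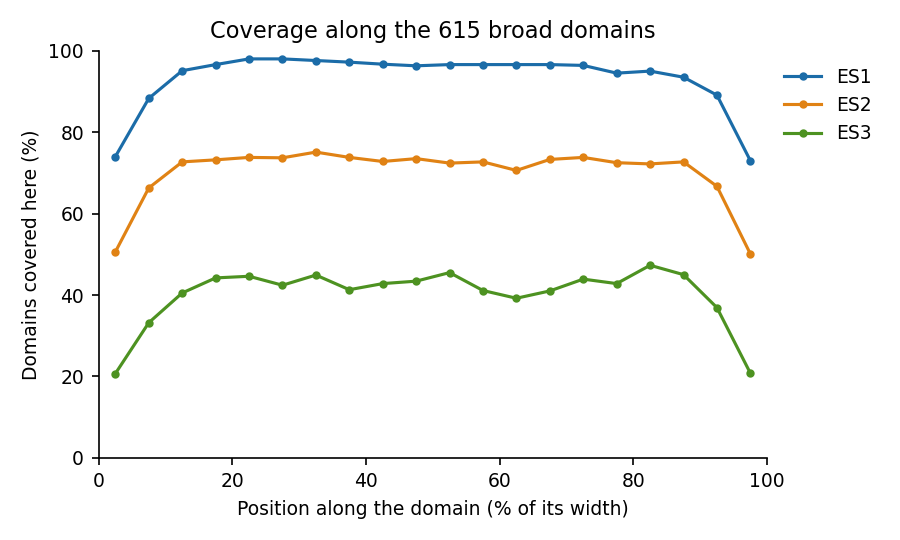
Share of the 615 domains covered by a peak of each list (y axis, %) at 20 positions along the domain (x axis, % of its width, in coordinate order). ES3 stays between 39.2% and 47.3% from the third to the eighteenth position and is near 21% at both ends; ES2 and ES1 are higher throughout and fall at the ends as well.

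ES3 covered the gaps of ES2 less than it covered the domains as a whole. Inside the domains ES2 had 505 gaps between its peaks, with a median of 2404 bp (quartiles 1786 and 3399), and ES3 had 540, with a median of 3148.5 bp (2189.5 and 5019.8). Gaps of at least 5 kb numbered 41 in ES2 and 136 in ES3. Over all neighbouring autosomal peaks, 1% of gaps were shorter than 1435.6 bp (ES1), 1402.5 bp (ES2) or 1526.2 bp (ES3), so breaks shorter than this were rarely listed. ES3 covered 21.7% of the bases in ES2 gaps, compared with 41.1% of all domain bases. No ES3 peak reached into 232 of the 505 ES2 gaps (45.9%), and 55 (10.9%) were bridged whole by ES3. ES1 had 87 gaps in 78 domains, and ES3 covered 18.1% of their bases, with 55 gaps free of ES3 and 10 bridged. ES1 bridged 500 of the 505 ES2 gaps. A gap inside a merged region must be covered by the other lists between them, so bridging by one of the 2 is partly set by the merging. In ES3 gaps, ES2 covered 64.9% of the bases, compared with 71.3% of all domain bases.

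Most domain bases were called in ES1, as the rule favours. Of all domain bases, 33.8% were called in all 3 lists, 31.5% in ES1 and ES2, and 22.5% in ES1 alone. ES1 and ES3 without ES2 held 5.56%, ES2 alone 4.88%, ES2 and ES3 without ES1 1.1%, and ES3 alone 0.603%. Of the bases that ES3 covered, 95.9% were also covered by ES1 and 85.0% by ES2, while ES1 and ES2 covered 93.4% and 71.3% of the domains as a whole. Of the bases that ES2 covered, 91.6% were also covered by ES1, slightly below the share of ES1 over all domain bases, and 49.0% by ES3. ES3 thus lay within ES2 more than the ES2 share of all domain bases. Its overlap with ES1 was also slightly above the ES1 share, which left little room for a higher value. A stretch called in all 3 lists existed in 587 domains. The longest such stretch had a median of 3103 bp (quartiles 1816.5 and 4857), a median of 21.9% of the domain's width, and reached 10 kb in 24 domains.

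Read density within the called stretches differed far less between the lists than coverage did. Bases with too few reads to be called are left out in every list, so similar densities can be partly built in. The score of each peak gives a whole number, taken here as reads, for an inner interval that begins at the start of the peak and can be much shorter than it. Inner intervals of domain peaks averaged 11.1 (ES1), 11.0 (ES2) and 11.1 (ES3) reads per kb, compared with 12.9, 12.7 and 12.1 in the peaks of all other regions. The medians over single domain peaks were 12.1, 11.8 and 10.9 reads per kb. Of these peaks 33.3%, 50.5% and 58.4% were counted over their whole length, so the medians compare unlike stretches. Without the 2 domains at chromosome starts described below, the averages were 11.0, 11.0 and 10.4. The 615 next narrower regions, whose widest peak fell just short of the limit, had 11.1, 11.2 and 10.8 reads per kb. If the score is a fold over the mean of its chromosome, which no source states, that mean ranged from 0.736 to 1.45 reads per kb for ES1, from 0.853 to 1.51 for ES2 and from 0.783 to 1.3 for ES3. Inner intervals made up only 49.0% of the bases of ES1 domain peaks, 58.6% of ES2 and 68.4% of ES3, so most single domains cannot be compared by reads.

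Read totals followed the covered length, which the width rule favours in ES1. In 27 domains all 3 lists had a peak and every peak was counted over its whole length. There ES1 held 3458 reads (exact Poisson 95% interval 3343.7 to 3575.2) over 339914 bp, ES2 2350 (2255.9 to 2447.0) over 226853 bp and ES3 1271 (1202.1 to 1342.8) over 132037 bp. The reads per kb were 10.2, 10.4 and 9.63. ES1 had more reads than ES3 in 27 of 27 of these domains, with the intervals apart in 26, and more than ES2 in 24, with the intervals apart in 12. At chr5:112704829-112728751, the widest of these, ES1 had 219 reads (191.0 to 250.0) in 2 peaks, ES2 232 (203.1 to 263.9) in 1 and ES3 148 (125.1 to 173.9) in 1. The ES1 and ES2 intervals overlap there and the ES3 interval lies below both. The depth of the lists is unknown, so these totals are a description of the listed peaks. Reads outside the listed peaks are unknown, and the intervals cover counting error only.

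Only 42 domains kept a 10 kb peak in ES3, and the longest of these lay at the start of 2 chromosomes. At chr11:3023109-3099759 the longest ES3 peak was 69341 bp, and at chr9:3013742-3038198 ES3 listed 1 peak of 24309 bp. The counted reads per kb at the chromosome 9 domain were 16.2 in ES1, 28.6 in ES2 and 46.6 in ES3, and at the chromosome 11 domain 16.3, 16.7 and 23.9. The median ES3 domain peak had 10.9 reads per kb. These 2 domains are the only ones that start before 3.1 Mb of their chromosome, where the assembled sequence begins. They were singled out after their values were seen, and their sequence was not analysed here. The inner intervals behind the densities differ in length, 4005, 4611 and 24309 bp on chromosome 9 and 59327, 717 and 70165 bp on chromosome 11. The ES2 density on chromosome 11 rests on 12 reads (6.2 to 21.0) in a small part of its 76578 bp peak. It does not give the density of the whole peak.

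Away from these 2, the widest ES3 peak measured 21328 bp, at chr18:65732591-65765992, where the 3 lists covered 91.1%, 88.6% and 82.5%. The other long ES3 peaks measured 19809 and 19124 bp, in 2 of the 10 widest domains, and 18635 bp in the chromosome 5 domain above. They were followed by 15307 bp at chr18:38742197-38765371, 14477 bp at chr7:119823886-119842067, 14456 bp at chr4:145581093-145597218 and 14247 bp at chr2:179947789-179964001. At the chromosome 4 domain all 3 lists held 1 peak each, of 15479, 15834 and 14456 bp, which covered 96.0%, 98.2% and 89.6% of the bases. At chr18:38742197-38765371 ES3 covered 72.8% and ES2 69.3% of the bases, and both held 2 peaks against 1 in ES1. A 10 kb peak in ES3 and in neither other list occurred once, at chr19:23231580-23243032, named after its values were seen. The ES3 peak there was 10428 bp, and ES1 and ES2 held 1 peak each of 9287 and 8070 bp.

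At the other extreme, ES3 was absent from 20 domains and ES2 from 1. The widest without ES3 was chr4:154556449-154576443, where the ES1 peak covered all 19995 bp and 2 ES2 peaks covered 57.7%. It was followed by chr3:34650071-34668788 of 18718 bp, with 86.1% covered by ES1 and 66.8% by ES2, and chr1:154736344-154752705 of 16362 bp, with 100% and 63.8%. At chr11:107263557-107278698 and chr13:41032567-41047680, of 15142 and 15114 bp, ES1 covered 99.3% and 100% and ES2 53.9% and 50.5%. The domain without ES2 was chr5:122959118-122969685, with 1 ES1 peak of 10410 bp and 2 ES3 peaks that covered 62.4%. On the autosomes the fewest reads behind any listed peak were 8 to 10 by chromosome, so a domain absent from a list is not shown to lack the mark in those cells.

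Breaking in ES2 and ES3 became more common from each width band to the next, while coverage was higher in the widest bands without rising at every step. By the widest single peak, regions of 8 to 10 kb were covered to 64.7% by ES2 and 35.8% by ES3, domains of 10 to 12 kb to 68.7% and 37.3%, of 12 to 16 kb to 68.5% and 40.3%, of 16 to 24 kb to 73.6% and 43.1%, and the 43 domains of 24 kb or wider to 78.3% and 47.1%. Without the 2 domains at chromosome starts, the last pair was 76.8% and 43.2%, so ES3 coverage was then level over the 2 widest bands. The share broken in ES3 went from 32.1% of regions of 8 to 10 kb to 41.3%, 64.2%, 82.4% and 93.0% in domains of 10 to 12, 12 to 16, 16 to 24 and 24 kb or wider. Per 10 kb of region, ES3 breaks numbered 0.355, 0.411, 0.562, 0.65 and 0.685 in the same bands, and ES2 breaks 0.386, 0.442, 0.528, 0.563 and 0.595. Breaks were counted only between the peaks of a list, never at the ends, so this scaling does not fully remove the effect of width. ES1 breaks, which the rule holds down, stayed between 0.0484 and 0.116. The change across 10 kb was gradual, with no step at the limit in ES2 or ES3.

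Domains were spread over all 19 autosomes, at 1.12 to 4.12 per 10 Mb up to the last peak. Chromosome 4 held the most, 59, followed by chromosome 8 with 54. As a share of merged regions, chromosome 15 was highest with 42 of 1390 (3.02%, 2.19 to 4.06), then chromosome 8 with 2.94% (2.21 to 3.81) and chromosome 4 with 2.75% (2.1 to 3.53). Chromosome 16 was lowest with 11 of 1134 (0.97%, 0.485 to 1.73), and chromosome 17 had 1.25% (0.753 to 1.94). These 5 intervals did not include the share over all autosomes, 1.99%, but neighbouring domains are not independent, so the intervals are too narrow. The next narrower regions took 3.1% of chromosome 8 as well, but 2.0% of chromosome 4, 2.37% of chromosome 15 and 2.5% of chromosome 17. Coverage of the domains by ES3 ranged from 30.2% on chromosome 3 and 31.6% on chromosome 2 to 59.8% on chromosome 18, where 5 of 17 domains held a 10 kb ES3 peak. ES2 coverage ranged from 63.7% on chromosome 17 to 76.8% on chromosome 7, and chromosome 18 was at 68.6%.

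**Figure D5:**
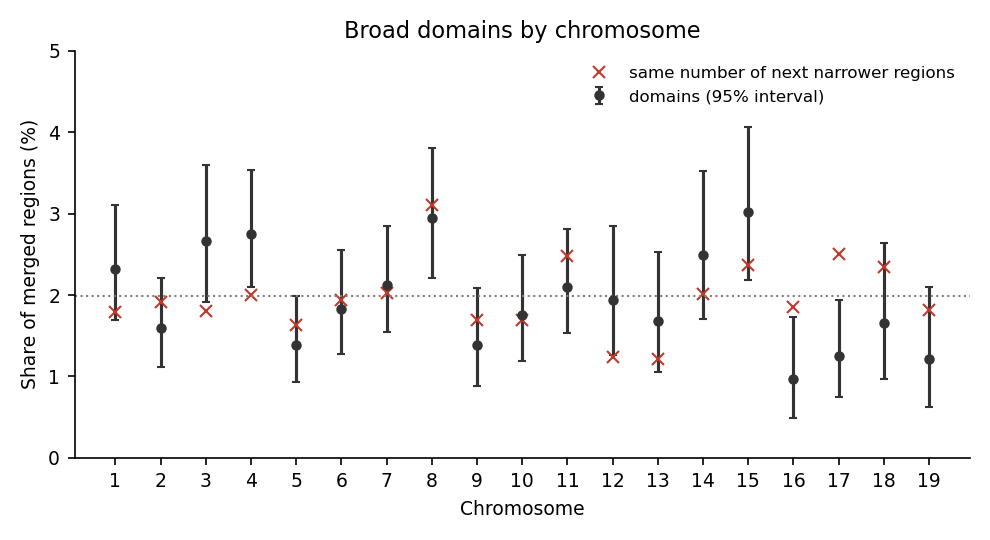
Broad domains as a share of all merged regions of each autosome (y axis, %; points with exact binomial 95% intervals), with the share over all autosomes as a dotted line and the same number of next narrower regions as crosses. Chromosomes 4, 8 and 15 lie above the line and 16 and 17 below it; on chromosome 8 the crosses are high as well.

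Domains often had another domain close by. Within 100 kb of its edges, 239 of the 615 domains (38.9%, 35.0 to 42.8) had another domain, and within 10 kb 88 (14.3%, 11.6 to 17.3). Of the next narrower 615 regions, 199 (32.4%, 28.7 to 36.2) had another of their own set within 100 kb and 48 (7.8%, 5.81 to 10.2) within 10 kb. The median distance to the nearest of the set was 269.6 kb and 276.6 kb, so the sets were close there. The intervals of the 2 sets were apart within 10 kb but overlapped within 100 kb. Each close pair counts both of its members, so the intervals are too narrow and do not settle whether the sets differ. A wide stretch that no list bridged counts as 2 close domains. Linking domains within 100 kb gave 376 lone domains, 80 pairs, 22 groups of 3, 2 of 4 and 1 of 5. Domains with a neighbour were covered to 73.5% by ES2 and 40.6% by ES3, and lone domains to 69.8% and 41.4%, and 58.6% and 58.5% of them were broken in ES2.

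The group of 5 lay at chr11:97515645-97695148, with 12 merged regions. Its domains were 12491, 20382, 11666, 22146 and 12286 bp wide in order of position. ES1 held 1 peak in each, ES2 held 1, 3, 2, 4 and 2, and ES3 held 2, 2, 1, 3 and 1. ES3 covered 14.7%, 38.5%, 23.2%, 68.4% and 6.83% of them, and ES2 66.9%, 56.5%, 61.5%, 80.7% and 84.7%. Domains side by side thus differed in how much ES3 covered, from 6.83% to 68.4%. The lowest ES3 share fell in the domain with 84.7% covered by ES2, and the highest in the domain with 80.7%. The densest group of 3, chosen after its values were seen, lay at chr4:154529002-154596096, where domains filled 91.5% of the span and ES1, ES2 and ES3 peaks covered 90.2%, 62.1% and 29.0% of it. The widest domain without an ES3 peak, named above, is the middle one of these 3.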

How the data were processed

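Reads were aligned with Bowtie to mm9, per the submitters' processing notes; no source used here names the peak caller. The 3 lists deposited by the authors give each peak's chromosome, start and end in bp, an inner interval and a score with no stated unit; 0-based starts were converted to 1-based. The deposited score multiplied by the inner length was, for 100% of peaks, a whole multiple of 1 unit that is specific to the chromosome and list (tolerance 0.001), and the multiple was taken as a number of reads, which is an assumption. The depth of the lists is unknown. Touching or overlapping autosomal peaks were merged, and regions with a peak of 10000 bp or more were kept. Merging, coverage and distances were checked on 20 simulated sets, with 0 errors. Python 3.11.15, pandas 2.3.3 and SciPy 1.17.1 were used. Named regions are the 10 widest domains, the 10 with the longest ES3 peaks, the widest chosen by ES2 and not ES1, the widest without ES2 or ES3, those with the most peaks, those nearest the limit and the largest group; those with the most reads are given only where named already. The members, rules and lists were chosen with earlier results of these data known. Planned counts of gene lists in domains were not run, since the gene tables at hand are on another build.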

Additional observations from a re-analysis of the deposited data

How the results depend on the processing

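The order ES1, ES2, ES3 by covered bases held for every alternative listed here except the domains chosen by ES2 alone. It also failed in smaller sets split by list, given above. The cause of the shifts was not tested. Alternatives with equal list lengths and without chromosome starts were added after the data were seen. Limits of 8 and 12 kb gave 1060 and 363 domains. Bases covered by ES1, ES2 and ES3 were then 92.9%, 69.3% and 39.5%, and 94.3%, 72.4% and 42.7%; domains broken in ES2 and ES3 48.9% and 48.5%, and 68.3% and 73.6%; and domains within 100 kb of another 51.5% and 28.4%. Within 50 and 200 kb they were 30.2% and 45.7%. With the widest single peak as the denominator, coverage was 96.8%, 71.4% and 41.7%. Leaving out the peaks below each list's lower quartile of score gave 65.4%, 46.7% and 25.1%, and 442 domains. Domains with a 10 kb peak in ES1 only gave 95.8%, 59.4% and 34.4%, in ES2 only 74.0%, 93.5% and 39.4%, and in ES3 92.2%, 85.8% and 74.1%. Without the 2 domains at chromosome starts ES2 and ES3 covered 71.0% and 40.5%, and ES1 and ES3 domain peaks held 11.0 and 10.4 reads per kb of inner interval. With 12239 peaks per list, most reads first, ES1 and ES2 covered 74.1% and 57.6% and were broken in 7.97% and 40.7%; this drops wide peaks whose inner interval is short. Requiring 50% of a domain's bases, ES2 was found in 82.0% and ES3 in 29.9%. Of the 56 values 15 stayed within the interval, equal after rounding or, for counts, within 1.5 times the main count. The count of 442 domains is 1 of these 15. So are the ES3 values with 12239 peaks per list, which could not change because ES3 held no more autosomal peaks. No paired analysis was possible because no list carries a replicate number and the values come from no test. The total depth of the lists is unknown, and the fewest reads behind a listed peak were 8 to 10 by chromosome, so a gap is not shown to be unmarked.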
